A study of Mus musculus with 6 samples.

Results

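The genes described here are 10 receptors that direct lymphocytes through blood and tissue: the chemokine receptors *Ccr2*, *Ccr4*, *Ccr6*, *Ccr8*, *Ccr9*, *Cxcr4* and *Cxcr6*, the sphingosine 1-phosphate receptor *S1pr1*, the oxysterol receptor *Gpr183* and the gut homing receptor *Gpr15*. They were picked by gene name, with earlier results of these data known, and all 10 were among the 16381 genes with deposited values and among the 14419 genes tested. Lung group 2 innate lymphoid cells (ILC2s) of WT BALB/cJ mice were activated in the animal by intranasal IL-33 at 0.5 µg per day for 3 days, and these activated cells (aILC2s) were sorted as CD45+, lineage-negative, ST2+ and CD127+ cells. They were then cultured for 24 h with 250 µM melatonin or with the solvent DMSO as vehicle, and bulk RNA sequencing was done on 3 samples per group. All 6 samples shared the IL-33 challenge, the sort and the culture, and no unchallenged or uncultured cells were in the comparison.

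Chemokine receptors are G protein-coupled receptors on the surface of leukocytes that sense a gradient of small secreted proteins and turn it into directed movement, mostly through the inhibitory Gi proteins. S1PR1 senses the lipid sphingosine 1-phosphate, which is high in blood and lymph, and lets lymphocytes leave tissues, while GPR183 follows oxysterols and places lymphoid cells within tissues. ILC2s are mostly tissue-resident, and activated ILC2s can leave one organ and enter another, so the set of receptors that they transcribe bears on where they can go.

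All values below are normalized counts: the estimated reads of a gene, scaled by one size factor for each sample. The samples held between 17056165 and 20511599 estimated counts. *Gata3*, the lineage factor of ILC2s, was between 17890 and 24588 normalized counts in all 6 samples, and all 12 ILC2 markers were listed, although 8 were lower and 2 higher in melatonin by the test below. Melatonin replicates 2 and 3 held 579 and 1091 of *Xist*, the RNA that silences an X chromosome in females, against at most 13.6 elsewhere, and the Y-linked *Ddx3y* was at 0 in those 2 samples and between 746 and 1071 in the other 4, although the methods give female mice. The 2 samples with high *Xist* and no *Ddx3y* were thus both in melatonin, so sex and treatment were partly confounded. None of the 10 receptor genes lies on chromosome X or Y, but an effect of sex on them was not tested. *Cxcr3* and *Was*, described below, do lie on chromosome X. Where a receptor's call differs without these 2 samples, its value without them is given. The library names of the melatonin and the vehicle samples run in separate blocks of numbers, and a batch along those blocks and the treatment cannot be told apart. The labels do not say whether the 3 samples of a group came from separate animals. By *Xist* and *Ddx3y*, melatonin replicate 1 did not come from the same animals as melatonin replicates 2 and 3, so the spread of that group is not only technical. The p-values measure only the spread between these samples, which in vehicle may be technical.

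Of the 10 receptors, 4 fell with melatonin and none rose, and 1 of the 4, *Gpr15*, passed the filter on low values only through the vehicle samples. *Ccr2*, the receptor for the monocyte chemoattractant CCL2 and its relatives, fell most among the receptors still clearly detected, and *S1pr1*, *Ccr8* and *Gpr15* fell too. The other 6 did not pass the test. Each gene was compared between the groups in limma, on log2(normalized count + 1), with Benjamini-Hochberg adjustment over all genes tested and a threshold of 0.05. Of all genes tested, 24.7% were lower and 24.5% were higher by this rule, and falls and rises were thus about equally frequent. Leaving *Gpr15* aside, 3 of the receptors were lower and 0 higher. Without melatonin replicate 1, 5 receptors were lower, with *Cxcr6* added. With melatonin replicates 2 and 3 left out, 5 were lower, with *Ccr4* added, and 2 were higher, *Cxcr6* and *Gpr183*. At an unadjusted p under 0.05, 5 receptors were lower and 0 higher, and limma's voom on the estimated counts also gave 4 lower and 0 higher. The median log2 fold change of the 10 receptors was −0.66, the midpoint of *Ccr6* and *Cxcr4*, neither of which was called, and that of all genes tested was 0.00. All 3 melatonin samples lay below all 3 vehicle samples for 6 of the 10 receptors, where 30.3% of all genes tested did so. No receptor had all melatonin samples above all vehicle samples, where 30.0% of all genes tested did so.

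**Figure D1:**
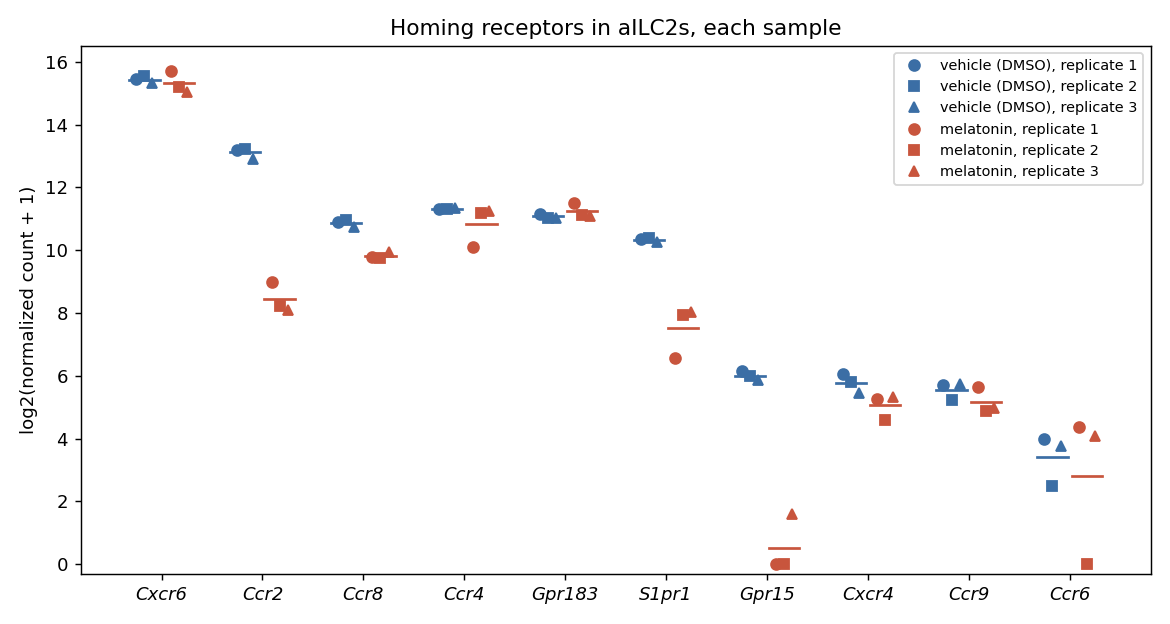
Log2 of the normalized count plus 1 (vertical axis) of each receptor in each sample, vehicle in blue and melatonin in red, with a bar at the mean of 3 samples and the replicate shown by the marker. *Ccr2*, *S1pr1* and *Gpr15* are far apart between the groups, *Cxcr6* overlaps, and melatonin replicate 1 stands apart from replicates 2 and 3 in *Ccr4* and *S1pr1*.

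*Ccr2* lies at chr9:123901982-123913594 of GRCm39 on the plus strand. Its protein guides monocytes and some lymphocytes toward CCL2, CCL7 and CCL12. *Ccr2* was at 9410, 9665 and 7690 normalized counts in vehicle replicates 1, 2 and 3 and at 509, 298 and 274 in melatonin replicates 1, 2 and 3. Every melatonin sample was thus more than an order of magnitude below every vehicle sample, and the means differed 24.8-fold. The log2 fold change was −4.67 ± 0.21 (SE, n = 3 per group, limma adjusted p = 4.37e-06). Over all alternatives tried, it was between −4.95 and −4.12.

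*Ccr2* is also a marker of monocytes, and markers of some other cells were lower with melatonin too. Others were not. Among 5 tested epithelial markers, 3 were lower and 1, *Epcam*, was higher, where 24.7% of all genes tested were lower. These 3, *Scgb1a1*, *Sftpc* and *Krt8*, passed the filter on low values only through the vehicle samples. *Kit*, 1 of 2 tested mast cell and basophil markers, was higher, and the dendritic cell marker *Xcr1* was not called. Of 7 monocyte and macrophage markers 6 were listed, and 5 of these were lower with melatonin, where 24.7% of all genes tested were lower. Their summed level was between 1433 and 1636 normalized counts in vehicle and between 364 and 804 in melatonin, and *Marco* was not listed. *Lyz2*, the lysozyme of myeloid cells, was the highest of them at 981, 912 and 1094 in vehicle and 252, 635 and 575 in melatonin. *Ly6c2* was at 118, 94.0 and 111 in vehicle and at 1.96, 0 and 3.47 in melatonin. *Adgre1* was at 32.7, 17.8 and 4.20 in vehicle and at 1.87, 2.19 and 2.01 in melatonin. Both were lower and passed the filter on low values only through the vehicle samples. *Csf1r* was not called. The sort excluded CD11b-positive cells, and *Itgam*, which encodes CD11b, was at 61.6, 55.4 and 56.7 in vehicle and at 0, 5.46 and 24.1 in melatonin. The 6 markers of NK cells and ILC1s were all listed and summed to between 6020 and 7285 in vehicle and between 85.0 and 214 in melatonin, mostly through the granzyme gene *Gzma*, and the sort excluded cells with CD335, the product of *Ncr1*. In bulk samples, fewer cells of a type and less RNA per cell cannot be told apart, and the part of other cells in the fall of *Ccr2* was not tested.

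*S1pr1* lies at chr3:115504071-115508721 on the minus strand. It encodes the receptor through which lymphocytes follow sphingosine 1-phosphate out of tissues. *S1pr1* was at 1302, 1348 and 1233 normalized counts in vehicle and at 94.3, 244 and 258 in melatonin. The groups did not overlap, and melatonin replicate 1 was the lowest sample. The means differed 6.51-fold, and the log2 fold change was −2.83 ± 0.33 (SE, n = 3 per group, limma adjusted p = 0.000272). Without melatonin replicate 1 it was −2.36, and with melatonin replicate 1 alone it was −3.76, so the size of the fall differed between the libraries and its direction did not. T cells also use *S1pr1* and *Ccr8*. Of 9 T cell markers, 5 were listed and all 5 were lower with melatonin, where 24.7% of all genes tested were lower. Their summed level was between 6042 and 6571 normalized counts in vehicle and between 2127 and 3173 in melatonin. *Cd3d*, at 14.9, 13.1 and 7.34 in vehicle and 0.934, 0 and 6.03 in melatonin, passed the filter on low values only through the vehicle samples. The sort excluded cells with CD3ε, CD4, CD5, TCRβ or TCRγδ. *Cd4* and *Cd8a* were not listed, and the part of T cells in these results was not tested.

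*Ccr8* lies at chr9:119921180-119924263 on the plus strand. It encodes the receptor for CCL1, and in the mouse for CCL8, and marks type 2 lymphocytes. *Ccr8* was at 1892, 1984 and 1725 normalized counts in vehicle and at 889, 872 and 975 in melatonin. The groups were far apart and the samples within each were close to each other. The means differed 2.05-fold, and the log2 fold change was −1.03 ± 0.09 (SE, n = 3 per group, limma adjusted p = 7.71e-05). *Ccr8* had the smallest SE among the 10 receptors.

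*Gpr15* lies at chr16:58537796-58539433 on the minus strand and encodes a receptor that sends lymphocytes to the large intestine. *Gpr15* was at 70.0, 63.2 and 57.7 normalized counts in vehicle, and in melatonin it was at 0, 0 and 2.01. It passed the filter on low values, at least 10 in at least 1 sample, only through the vehicle samples. The melatonin samples together held 2 estimated counts against 197 in the vehicle samples. The mean was 94.98-fold lower, with an exact 95% interval from 25.9 to 790 that covers counting error only. The fitted log2 fold change was −5.48 ± 0.53 (SE, n = 3 per group, limma adjusted p = 0.000129), a size that depends on the pseudocount. The gene overlaps the far end of an annotated transcript of *Cpox* on the other strand, and the library kit does not mark strand. *Cpox*, a heme synthesis gene, was at 6217, 7074 and 7142 in vehicle and 1224, 2058 and 1962 in melatonin, so reads from the overlap cannot be assigned to one of the genes with certainty.

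**Figure D2:**
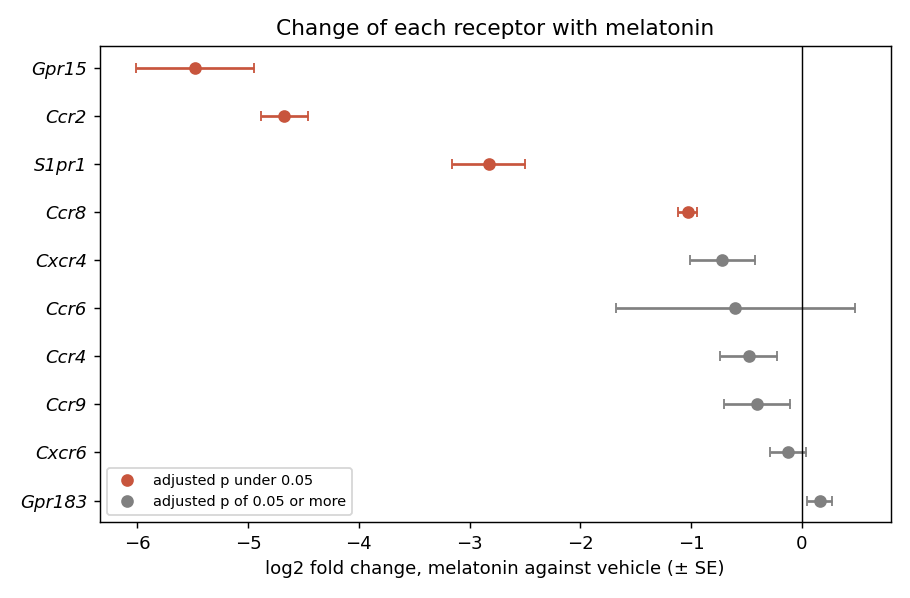
Log2 fold change of melatonin against vehicle (horizontal axis) with its SE for each receptor, in red where the limma adjusted p was under 0.05. *Gpr15*, *Ccr2*, *S1pr1* and *Ccr8* lie at −5.48, −4.67, −2.83 and −1.03, and the other 6 receptors are grey.

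*Cxcr6*, at chr9:123635534-123640825, encodes the receptor for the membrane-bound chemokine CXCL16 and was the most abundant of the 10 per kilobase. It did not pass the test. *Cxcr6* was at 44538, 47642 and 41196 normalized counts in vehicle and at 54053, 37279 and 33628 in melatonin. Melatonin replicate 1 was above every vehicle sample, and melatonin replicates 2 and 3 were below every vehicle sample. The log2 fold change was −0.12 ± 0.16 (SE, n = 3 per group, limma adjusted p = 0.559). Without melatonin replicate 1 it was −0.33 (limma adjusted p = 0.00923), and with melatonin replicate 1 alone it was 0.28 (limma adjusted p = 0.0323), where the lone sample is assumed to vary like the vehicle samples. The call for *Cxcr6* thus rests on which melatonin libraries are used.

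*Ccr4*, at chr9:114319384-114333984, encodes the receptor for CCL17 and CCL22 that guides type 2 lymphocytes. It was at 2559, 2558 and 2584 normalized counts in vehicle and at 1107, 2316 and 2428 in melatonin. All melatonin samples were below all vehicle samples, but only replicate 1 was far below. The log2 fold change was −0.48 ± 0.26 (SE, n = 3 per group, limma adjusted p = 0.146), −0.11 without melatonin replicate 1 and −1.21 with melatonin replicate 1 alone (limma adjusted p = 8.99e-05). *Gpr183*, at chr14:122189592-122202610, was at 2297, 2105 and 2082 in vehicle and 2885, 2220 and 2204 in melatonin. Its log2 fold change was 0.16 ± 0.11 (SE, n = 3 per group, limma adjusted p = 0.260), 0.03 without melatonin replicate 1 and 0.42 with that replicate alone (limma adjusted p = 0.00802).

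*Cxcr4*, at chr1:128515936-128520044, encodes the receptor for CXCL12 that retains cells in bone marrow. It was low, at 66.3, 54.3 and 43.0 normalized counts in vehicle and 37.4, 22.9 and 39.2 in melatonin. The groups did not overlap, and the log2 fold change was −0.72 ± 0.30 (SE, n = 3 per group, limma adjusted p = 0.0721), or −0.91 with sample weights (limma adjusted p = 0.0217). *Ccr9*, the receptor for CCL25 that directs lymphocytes to the small intestine, lies at chr9:123507181-123613395. It was at 51.6, 36.5 and 52.5 in vehicle and 49.0, 28.4 and 30.2 in melatonin, and the groups overlapped, with a log2 fold change of −0.40 ± 0.30 (SE, n = 3 per group, limma adjusted p = 0.286). The span of *Ccr9* also holds the pseudogene *Gm10052*, which was at 4914, 4896 and 4582 in vehicle and 1608, 2671 and 2458 in melatonin. *Ccr6*, the receptor for CCL20, lies at chr17:8454869-8475973 and was at 14.9, 4.68 and 12.6 in vehicle and 19.6, 0 and 16.1 in melatonin, with a log2 fold change of −0.60 ± 1.08 (SE, n = 3 per group, limma adjusted p = 0.667). The mean of *Ccr6* was 1.11-fold higher in melatonin, so its direction differs between the log2 scale, on which the sample at 0 weighs most, and the mean.

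Levels of different receptors were compared per kilobase of merged exons. In vehicle the order was *Cxcr6* at 22952 normalized counts per kilobase, *Ccr2* at 1319, *Ccr8* at 1273, *Ccr4* at 830, *Gpr183* at 663, *S1pr1* at 313, *Gpr15* at 38.9, *Cxcr4* at 29.9, *Ccr9* at 4.43 and *Ccr6* at 4.38. The 3 values overlapped between *Ccr2* and *Ccr8*, between *Gpr15* and *Cxcr4* and between *Ccr9* and *Ccr6*, and the other neighbours were apart. In melatonin the order was *Cxcr6* at 21504, *Gpr183* at 747, *Ccr4* at 630, *Ccr8* at 622, *Ccr2* at 53.3, *S1pr1* at 48.1, *Cxcr4* at 18.2, *Ccr6* at 4.86, *Ccr9* at 3.39 and *Gpr15* at 0.409. *Gpr183*, *Ccr4* and *Ccr8* overlapped each with its neighbour, as did *Ccr2* with *S1pr1* and *Ccr6* with *Ccr9*. *Ccr2* thus moved from the second to the fifth place and *Gpr15* from the seventh to the last. Of the summed level of the 10 receptors per kilobase, *Cxcr6* took 83.3%, 84.1% and 83.7% in vehicle and 93.4%, 90.0% and 88.5% in melatonin, while *Ccr2* took 5.04%, 4.88% and 4.47% in vehicle and 0.252%, 0.206% and 0.207% in melatonin. A share also rises when other receptors fall, and *Cxcr6* itself was below every vehicle sample in melatonin replicates 2 and 3.

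**Figure D3:**
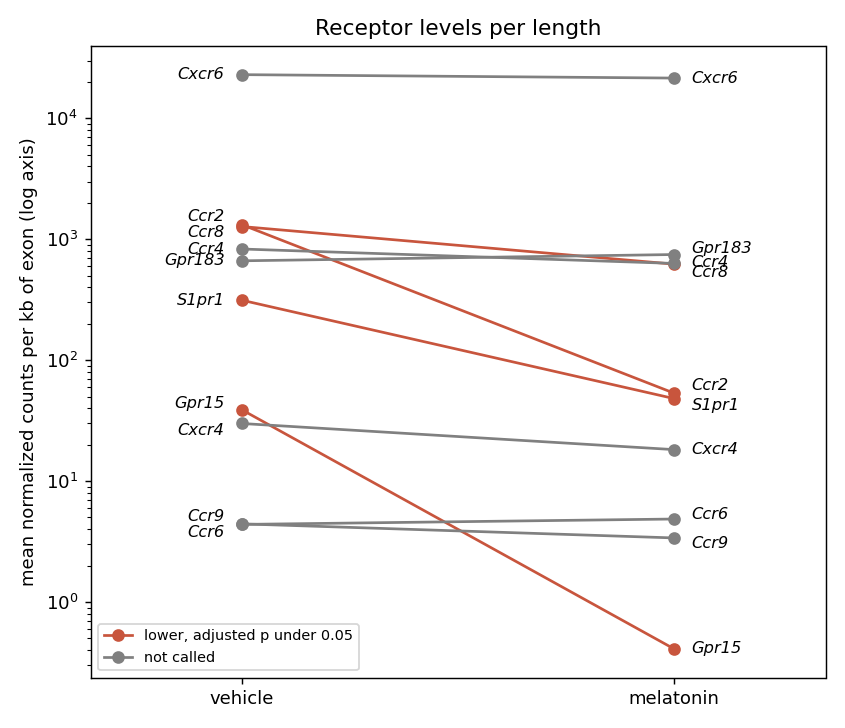
Mean normalized counts per kilobase of merged exons (log axis) of each receptor in vehicle and in melatonin, with a line per gene, red where the gene fell at an adjusted p under 0.05. *Cxcr6* stays at the top, at 22952 and 21504, and the lines of *Ccr2*, *S1pr1*, *Ccr8* and *Gpr15* descend.

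Among the receptors on chromosome 9, *Ccr9*, *Cxcr6* and *Ccr2* lie in one cluster of receptor genes within a stretch of 406 kilobases from *Ccr9* to *Ccr2*, which was chosen after the values had been seen. Its 2 ends differed. At the *Ccr9* end, *Ccr9*, *Cxcr6* and the XCL1 receptor gene *Xcr1* were not called, and *Xcr1* was at 615, 684 and 658 normalized counts in vehicle and 802, 599 and 579 in melatonin. At the other end, *Ccr1*, *Ccr3* and *Ccr2* fell, with log2 fold changes of −4.21, −4.46 and −4.67, over 151 kilobases. *Ccr1*, a receptor for CCL3 and CCL5, was at 1228, 1177 and 1033 in vehicle and 34.6, 66.6 and 97.5 in melatonin. *Ccr3*, the eotaxin receptor of eosinophils and type 2 lymphocytes, was at 331, 307 and 270 in vehicle and 8.40, 12.0 and 20.1 in melatonin, while of 3 eosinophil markers *Prg2* and *Epx* were not listed and *Siglecf* was at 0.933, 6.56 and 7.34 in vehicle and 0, 0 and 1.01 in melatonin, too low to be tested. The sort excluded cells with CD11b, which eosinophils carry, and the part of eosinophils in the fall of *Ccr3* was not tested. No melatonin sample reached a vehicle sample in any of these 3 genes. *Lztfl1* and *Fyco1* at the *Ccr9* end rose by 0.53 and 0.54 (limma adjusted p = 0.0258 and 0.0107). *Ccr1l1*, which lies between *Ccr1* and *Ccr3*, was at no more than 5.25 in any sample and was not tested. The chemokine receptor genes of this stretch are related in sequence, and the authors' algorithm can divide reads between such genes, so the sizes of the falls may not be independent.

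**Figure D4:**
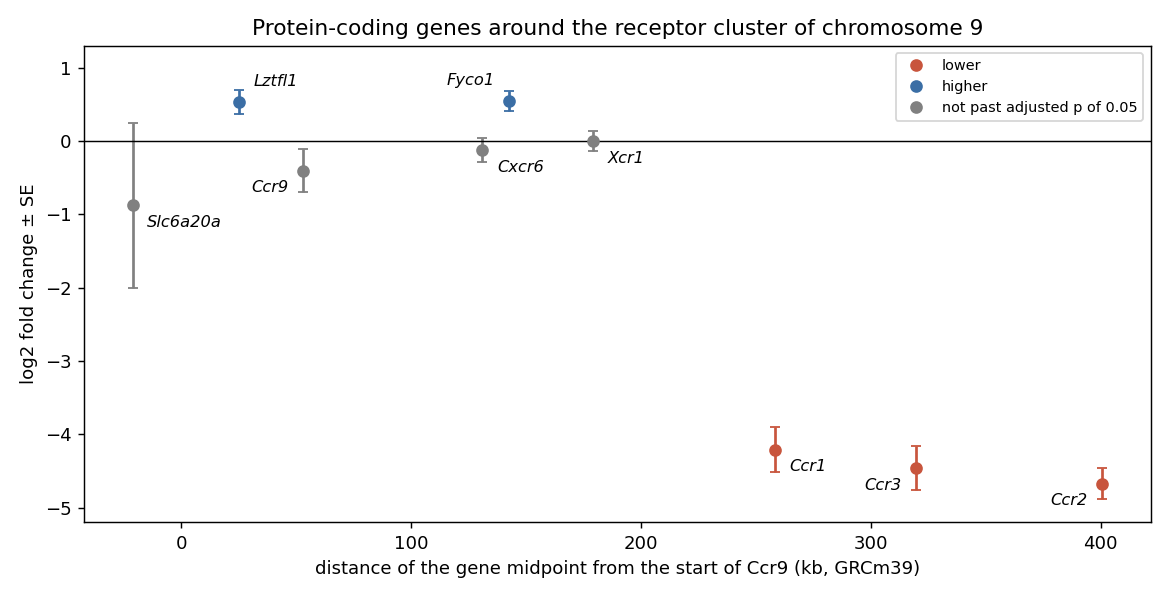
Log2 fold change with its SE (vertical axis) of the tested protein-coding genes around the receptor cluster of chromosome 9, by the distance of each gene's midpoint from the start of *Ccr9* in kilobases. *Ccr1*, *Ccr3* and *Ccr2* lie between −4.21 and −4.67, and the genes at the *Ccr9* end lie between −0.40 and 0.54, except for *Slc6a20a*, which is hardly detected and has a wide error.

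Because several of these receptors fell together, the 250 bases before the RefSeq start of the genes (GRCm38.p6) were searched on both strands for 4 motifs: the GATA motif AGATAA of the factor family of the ILC2 regulator GATA-3, the AP-1 motif TGANTCA, the E-box CACGTG of the circadian clock activators, and the antioxidant response element TGACNNNGC bound by NRF2. Of the 10 receptors, all but *S1pr1* had a promoter entry, with 10 windows in all. The GATA motif was present in 3 of these windows (*Ccr2*, *Ccr8* and one of *Ccr6*) and in 9.99% of all 32851 windows of this length. The AP-1 motif was present in 2 (*Ccr4* and *Gpr15*) and in 6.75% of all windows. The E-box and the antioxidant response element were in none of the 10, against 6.02% and 10.2% of all windows. *Ccr4* and *Ccr6*, which were not called, thus held a motif, as did *Ccr2*, *Ccr8* and *Gpr15*, which fell. As examples with and without a match, the windows are shown for *Ccr2* (chr9:124101933-124102182, plus strand), *Ccr8* (chr9:120091883-120092132, plus strand) and *Gpr15* (chr16:58718873-58719122, minus strand), and for *Cxcr6* (chr9:123806227-123806476, plus strand), which holds none of the 4 motifs. Capitals mark the matches.
Ccr2: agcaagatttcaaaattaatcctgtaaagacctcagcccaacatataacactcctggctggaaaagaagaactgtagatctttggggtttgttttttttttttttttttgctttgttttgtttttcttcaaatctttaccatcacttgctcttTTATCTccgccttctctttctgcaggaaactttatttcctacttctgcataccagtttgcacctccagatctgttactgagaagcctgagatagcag
Ccr8: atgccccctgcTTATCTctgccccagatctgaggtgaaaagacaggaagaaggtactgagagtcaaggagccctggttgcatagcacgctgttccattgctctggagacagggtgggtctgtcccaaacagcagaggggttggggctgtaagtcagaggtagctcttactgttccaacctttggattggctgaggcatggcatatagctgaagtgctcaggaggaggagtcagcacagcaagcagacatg
Gpr15: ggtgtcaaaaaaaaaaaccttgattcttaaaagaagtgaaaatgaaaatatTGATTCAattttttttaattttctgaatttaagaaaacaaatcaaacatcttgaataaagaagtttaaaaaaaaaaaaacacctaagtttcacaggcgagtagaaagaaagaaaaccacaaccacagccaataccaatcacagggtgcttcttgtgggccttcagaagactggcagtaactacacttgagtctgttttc
Cxcr6: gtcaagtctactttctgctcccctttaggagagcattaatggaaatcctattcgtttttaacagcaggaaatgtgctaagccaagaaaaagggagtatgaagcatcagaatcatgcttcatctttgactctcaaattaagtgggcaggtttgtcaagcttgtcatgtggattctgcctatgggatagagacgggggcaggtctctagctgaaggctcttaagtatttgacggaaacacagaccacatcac

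The genes around these receptors in their pathways were described in 7 lists. Of their 104 genes, 94 were listed and 85 tested, of which 36 were lower and 17 higher (42.4% and 20.0%, where 24.7% and 24.5% of all genes tested were lower and higher). Of the 36 lower genes, 9 passed the filter only through the vehicle samples, and of the 17 higher genes, 1 passed it only through the melatonin samples, so these counts describe the tested genes only. In the list of the other chemokine receptors, 6 of 8 tested genes were lower and none was higher, with a median log2 fold change of −3.18, or −2.67 with genes at 0 in all melatonin samples set at a lower bound of 3 counts per library. That median was −1.48 with no filter on low values and −1.33 with a pseudocount of 10, so its size depends on the low genes. Low genes such as *Cxcr3*, *Cxcr5* and *Cxcr2* passed the filter only through the vehicle samples, so the count and the median describe the tested genes and support nothing further. The falls in it were *Ccr3*, *Cxcr3*, *Ccr1*, *Ccr7*, *Cxcr5* and *Cxcr2*. Without vehicle replicate 2 the count was 4, since *Cxcr5* and *Cxcr2* lost their calls (limma adjusted p = 0.0555 and 0.0541), and *Cxcr2* lost its call without vehicle replicate 3 (limma adjusted p = 0.0685) and *Cxcr5* with melatonin replicates 2 and 3 left out (limma adjusted p = 0.110). *Ccr7*, which brings cells into lymph nodes and was picked out here after its values had been seen, was at 3505, 3406 and 3236 normalized counts in vehicle and 57.0, 418 and 486 in melatonin, and fell by 3.89 ± 0.67 on the log2 scale (SE, n = 3 per group, limma adjusted p = 0.00171). Melatonin replicate 1 was far below the other two, and the log2 fold change was −2.90 without it and −5.87 with it alone. *Ccr7* is also used by dendritic cells, and of 5 dendritic cell markers all were listed, 4 were tested and 2 were lower, with a summed level between 1748 and 1919 in vehicle and between 1256 and 1568 in melatonin. The 2 were *H2-Ab1* and *Itgax*, the latter at 132, 113 and 106 in vehicle and 1.87, 33.9 and 45.2 in melatonin. The sort excluded cells with CD11c, the product of *Itgax*, and the part of dendritic cells in the fall of *Ccr7* was not tested. *Cxcr3*, a receptor of type 1 lymphocytes, was at 20.5, 36.5 and 9.44 in vehicle and at 0 in every melatonin library, at least 7.31-fold lower.

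The list of lipid and chemoattractant receptors had 8 of 14 tested genes lower and 2 higher, where 2 of the 8, *S1pr3* and *C5ar1*, passed the filter only through the vehicle samples. The genes for sphingosine 1-phosphate receptors did not move together. *S1pr2*, which opposes migration, was at 504, 542 and 488 normalized counts in vehicle and 981, 692 and 698 in melatonin and rose by 0.61 ± 0.14 on the log2 scale (SE, n = 3 per group, limma adjusted p = 0.00771). *S1pr4* was at 0.26 ± 0.09 (limma adjusted p = 0.0373), a call that was lost in 9 of 18 alternatives, among them the replicate block (limma adjusted p = 0.0712) and the omission of any vehicle sample or of melatonin replicate 1 or 3 (limma adjusted p from 0.0567 to 0.126). *S1pr3* fell by 3.67 ± 0.88 (limma adjusted p = 0.00832) from low values of 33.6, 21.5 and 26.2 in vehicle to 9.34, 0 and 0 in melatonin, and passed the filter only through the vehicle samples. Per kilobase, *S1pr1* took 48.7%, 48.7% and 45.9% of the summed level of the 4 listed receptor genes in vehicle and 4.74%, 13.1% and 13.0% in melatonin. *S1pr4* took between 42.6% and 45.9% in vehicle and between 71.7% and 74.8% in melatonin. These are parts of a sum, so the share of *S1pr4* also rises because *S1pr1* falls. Elsewhere in the list, *C5ar1*, the receptor for complement C5a, was at 25.2, 10.3 and 14.7 in vehicle and at 0 in every melatonin library, at least 5.52-fold lower, and *C3ar1* fell by 2.20 on the log2 scale, a call that was lost in 7 of 17 alternatives. *C5ar1*, *C3ar1* and *Cxcr2* are also receptors of neutrophils and other myeloid cells. Of 4 neutrophil markers, 3 were listed, with a summed level between 13.6 and 75.6 in vehicle and between 0 and 4.37 in melatonin. *S100a8* was lower, at 39.2, 8.43 and 6.30 in vehicle and 0, 1.09 and 0 in melatonin, and passed the filter only through vehicle replicate 1. *Csf3r* was at no more than 5.62 in vehicle and at 0 in melatonin, and *Ly6g* was not listed. The sort excluded cells with CD11b or Gr-1, and the part of neutrophils in these falls was not tested.

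Ligands of the receptors were transcribed at low levels, with 5 of 8 tested genes lower and 1 higher. Of the 5 lower genes, 3 passed the filter only through the vehicle samples, and among genes averaging 100 or more 0 ligands were lower, so the count describes the tested genes only. These 3, *Ccl17*, *Ccl1* and *Ccl8*, were at 0 in all melatonin samples and between 4.67 and 24.1 normalized counts in vehicle, at least 5.94-fold, 3.92-fold and 2.84-fold lower. *Ccl22*, a ligand of CCR4, was at 72.8, 125 and 47.2 in vehicle and 0, 0 and 13.1 in melatonin. *Cxcl16*, the ligand of CXCR6, was at 26.1, 31.9 and 30.4 in vehicle and 6.54, 5.46 and 13.1 in melatonin, and *Ccl25*, the ligand of CCR9, rose from 81.2, 76.8 and 68.2 to 140, 131 and 123. *Ccl2* was at 33.6, 17.8 and 10.5 in vehicle and 0, 1.09 and 33.2 in melatonin, *Ccl7* at 14.0, 2.81 and 8.39 in vehicle and 0, 0 and 7.04 in melatonin, and neither passed the test, while *Gpr15lg* was too low to be tested, at no more than 6.03. Of the 6 listed myeloid markers given above, 5 were lower too, as were 3 of 5 tested epithelial markers, while *Epcam* was higher. *Ly6c2*, *Adgre1* and all 3 of these epithelial markers passed the filter only through the vehicle samples. *Scgb1a1* was at 95.2, 21.5 and 1045 in vehicle and 0, 0 and 1.01 in melatonin. *Sftpc* was at 155, 122 and 389 in vehicle and 6.54, 5.46 and 3.02 in melatonin. The sort took CD45+ cells without CD11b or CD11c, and the part of other cells in the falls of the ligands was not tested. Among the enzymes and transporters of lipid ligands, 6 of 11 tested genes were higher and 1 lower. Without vehicle replicate 2 only 2 were higher and 0 lower, without melatonin replicate 1 only 3 were higher, and without vehicle replicate 3 there were 4 higher and 0 lower. The largest rises were of *Spns2*, an exporter of sphingosine 1-phosphate, by 2.09 on the log2 scale, from values of no more than 4.20, of the lipid phosphatase gene *Plpp3* by 1.40 and of the sphingosine 1-phosphate phosphatase gene *Sgpp1* by 1.32. *Spns2* passed the filter only through the melatonin samples and lost its call in 8 of 16 alternatives, and *Plpp3* lost it without melatonin replicate 1 or vehicle replicate 2 or 3. *Ch25h*, which makes the precursor of the GPR183 ligand, fell by 2.95 from values between 10.3 and 18.7, passed the filter only through the vehicle samples and lost its call without vehicle replicate 2 or 3.

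Of 7 known regulators of these receptors, 4 were higher and 2 lower, where 24.5% of all genes tested were higher and 24.7% lower. With melatonin replicates 2 and 3 left out, *Klf2* and *Foxo1* lost their calls, at log2 fold changes of 1.27 and 1.03. *Klf2*, a transcription factor that activates *S1pr1* in T cells, was at 51.3, 111 and 150 normalized counts in vehicle and 232, 430 and 402 in melatonin, and rose by 1.84 ± 0.38 on the log2 scale (SE, n = 3 per group, limma adjusted p = 0.00431). *Foxo1*, which activates *Klf2*, rose by 0.81 ± 0.25 (limma adjusted p = 0.0254), from 610, 1042 and 1308 to 1917, 1734 and 1353. Its call was lost with the replicate block (limma adjusted p = 0.0512) and without vehicle replicate 2, melatonin replicate 1 or melatonin replicate 2 (limma adjusted p from 0.0501 to 0.0751). It was also lost in limma without the trend (limma adjusted p = 0.0822). *Cd69*, whose protein removes S1PR1 from the cell surface, fell by 0.74 ± 0.12 (limma adjusted p = 0.00114), from 1461, 1577 and 1386 to 1040, 837 and 780. *S1pr1* fell in the group in which *Klf2* and *Foxo1* were higher and *Cd69* was lower. Within melatonin, replicate 1 had the lowest *S1pr1* (94.3) and *Klf2* (232) and the highest *Cd69* (1040) and *Foxo1* (1917). Whether these genes acted on *S1pr1* was not tested. *Ahr*, the aryl hydrocarbon receptor, which regulates *Gpr15* in T cells, rose by 1.74, and *Hif1a*, which activates *Cxcr4* under low oxygen, rose by 0.78. *Rara*, a retinoic acid receptor on the path that induces *Ccr9*, fell by 0.93, and its partner *Rxra* was not called, at −0.10.

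Downstream of the receptors, 5 of 20 tested genes of G protein signalling and desensitisation were lower and 3 higher, which is 25% and 15% where 24.7% and 24.5% of all genes tested were lower and higher. The largest falls were of *Rgs1*, which shortens Gi signals of chemokine receptors, by 1.55, of *Gnai2*, the main Gi subunit of lymphocytes, by 0.59 and of the arrestin gene *Arrb2* by 0.53. *Gnai1*, *Grk5* and *Rgs10* rose by 1.59, 0.58 and 0.40, and 1 gene was higher without vehicle replicate 1 or vehicle replicate 2, where *Grk5* and *Rgs10* lost their calls. Both also lost them without vehicle replicate 3 (limma adjusted p = 0.125 and 0.130), and *Rgs10* with the replicate block (limma adjusted p = 0.0776). *Grk5* was called in 10 of 17 alternatives and *Rgs10* in 9 of 18. Of 17 motility genes, 9 were lower and 1 higher. *Was*, the actin regulator of the Wiskott-Aldrich syndrome, fell by 1.26, the coronin gene *Coro1a* by 1.15 and the WASP partner gene *Wipf1* by 0.66, while *Pik3r5* of the phosphoinositide 3-kinase that acts below chemokine receptors rose by 0.49.

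**Figure D5:**
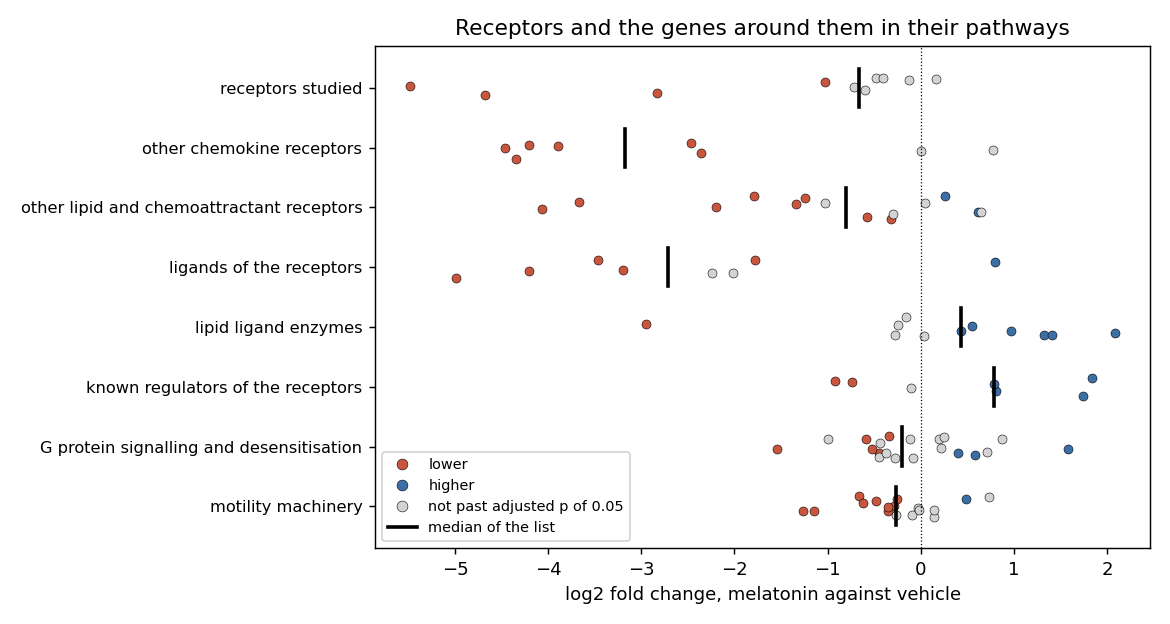
Log2 fold change of melatonin against vehicle (horizontal axis) of each tested gene, by list, in red for lower, blue for higher and grey for genes not called, with a bar at the median of the list. The medians are −0.66 for the receptors studied, −3.18 for the other chemokine receptors (−1.48 with no filter on low values) and 0.44 for the enzymes of lipid ligands.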

How the data were processed

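Trimming, STAR alignment to mm39 and assignment to Gencode M33 genes were done by the authors in Partek Flow, whose E/M algorithm can split a read among genes. They dropped genes with few counts and scaled each sample with median ratio size factors. The deposited table is therefore a signal, scaled estimated counts, and not raw counts. The methods give 10 pg and the labels 10 ng of input RNA. The value of 1 read was found from the spacing of the values, and between 61.3% and 63.8% of a sample's values were whole multiples of it at a tolerance of 0.01, so whole reads were not recovered and the main test was not a count model. The voom alternative and the interval for *Gpr15* treat the estimated counts as counts.

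The members and all gene lists were chosen with earlier results of these data known. Genes with at least 10 normalized counts in at least 1 sample were tested with limma 3.58.1 in R 4.3.3 (lmFit, eBayes with a trend) on log2(normalized count + 1), a scale that understates the change of low genes, with treatment as the only term and Benjamini-Hochberg adjustment over all genes tested. An exact permutation test of 3 against 3 samples cannot give a two-sided p below 0.1. All 10 receptors are named. Of the other lists, the 3 largest rises and falls past the threshold are named, and every listed regulator and ligand. Estimated counts per sample were between 17056165 and 20511599. Intervals and floors of 3 counts cover counting error only. Libraries of a group differed by more than counting noise (chi-square per degree of freedom from 7.52 to 47.0), in all 6 pairs, and none was counted as a copy. Positions, names and exon lengths came from release M39 of the GENCODE annotation of GRCm39. The script recovered changed genes in simulated data, in which only genes averaging 100 or more in vehicle were changed. The simulated spread was equal in both groups, so the simulation does not cover low genes or the differences between these libraries. The alternatives were other pseudocounts, filters, scalings and variance models, voom, the replicate block, samples left out and stricter thresholds. Leaving out melatonin replicates 2 and 3 together was added after the data had been seen. Some genes withheld for evaluation are not reported here and were left out of the lists. Tables were made with pandas 2.3.3.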

Additional observations from a re-analysis of the deposited data

How the results depend on the processing

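The counts of 4 lower and 0 higher receptors held in every alternative set beforehand, except that 5 were lower without melatonin replicate 1 (*Cxcr6* added) or with sample weights (*Cxcr4* added), and 3 among genes averaging 100 or more, where *Gpr15* was not tested. With melatonin replicates 2 and 3 left out together, 5 were lower and 2 higher. In that setting *Ccr6* was at 0.94, *Ccr9* at 0.081 and *Cxcr6* at 0.28 on the log2 scale. With 1 sample left out, *Ccr6* was between −1.37 and 0.81, the latter without melatonin replicate 2, and *Cxcr6* was between −0.33 and 0.016, the latter without melatonin replicate 3. The cause was not tested. *Ccr2*, *S1pr1*, *Ccr8* and *Gpr15* kept their call in every setting that tested them.

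Of the related genes, the count of 17 higher became 9 at an adjusted p under 0.01, 6 at an adjusted p under 0.05 with a log2 size of 1 or more, and between 9 and 15 with 1 sample left out. It was 9 without vehicle replicate 2 and 11 without melatonin replicate 1. The count of 36 lower became 23 among genes averaging 100 or more, where fewer genes were tested, and 21 at a log2 size of 1 or more. With melatonin replicates 2 and 3 left out together, 15 were higher and 37 lower. In that setting the counts of the lists were 7 lower for the ligands, 2 higher for the regulators, 1 higher and 5 lower for the other chemokine receptors, and 2 higher for motility, and the median of the lipid enzymes was 0.92. The median of the ligands became 0.79 among genes averaging 100 or more, since only *Ccl25* was left. Without division by length, 7 of the 10 receptors kept their place in the order of levels in vehicle and 7 in melatonin. Same-numbered samples did not deviate together (correlations of −0.05, 0.01 and −0.05), and with the replicate number as a block 4 receptors were lower and 0 higher, and 37 related genes were lower and 13 higher. Depth limits *Gpr15* in melatonin, *Ccr6* and most ligands.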
